A study of Mus musculus with 8 samples.

Results

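Amino acids enter blood cells through membrane transporters of the Slc families, and 10 of the genes that encode them are described here across 8 RNA sequencing libraries of mouse bone marrow. They are Slc3a2, Slc7a5, Slc7a8, Slc7a6, Slc7a11, Slc7a1, Slc1a5, Slc1a4, Slc38a1 and Slc38a2, listed by symbol for their part in nutrient uptake for growth and mTORC1 signalling. All 10 were found by Ensembl identifier among the 37991 gene rows of the deposited count table.

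The study compared haematopoietic stem and progenitor cells of C57BL/6J mice that lacked Runx1 with normal ones. The product of Runx1 is a transcription factor needed to form blood stem cells in the embryo. Mut in the sample names stands for Runx1 deficient in the submitters' words, and the WT samples carried floxed Runx1 (Runx1f/f). In both groups 24000 Flt3- LSK cells (lineage-negative, Sca1-positive, Kit-positive cells without surface Flt3) were sorted per sample, ERCC spike-in RNA was added to the purified RNA, and both a polyA-selected (mRNA) and a total RNA library were made. There were 2 Mut-labelled and 2 WT libraries of each kind. The sources used here do not give the Cre driver, the deleted exons, the age of the mice or whether replicates came from separate animals. P-values therefore set a group difference only against the spread between these replicates, which may be technical. An mRNA and a total RNA library of the same name were read as coming from 1 sorted sample, so the second kind repeats the measurement and adds no further mice.

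Gene counts summed to between 35096252 and 37924699 per mRNA library. They summed to between 967694 and 1218437 per total RNA library, where rRNA took 93.3% to 94.5% of all counts. Levels are given as CPM, counts scaled to 1e6 gene counts after edgeR's TMM scaling within 1 kind of library. Runx1 itself had 749 and 941 CPM in Mut-labelled mRNA libraries, against 199.9 and 207 CPM in WT mRNA libraries (log2 fold change 2.05, SE 0.18, edgeR adjusted p = 0.00753). Total RNA gave 1.88 on the same scale (SE 0.16, edgeR adjusted p = 5.59e-07). This runs against the label of a deficient gene. A count over the whole gene does not show whether deleted exons are missing, so the groups are called Mut-labelled and WT throughout. Of the genes that define the gate, Kit had 953 and 1099 CPM in Mut-labelled and 890 and 883 CPM in WT mRNA libraries, and Ly6a, which encodes Sca1, had 32.4 and 26.0 CPM in Mut-labelled and 23.7 and 38.5 CPM in WT mRNA libraries. Flt3 was measured at 57.3 and 87.5 CPM in Mut-labelled and at 117 and 155 CPM in WT mRNA libraries.

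As background, the heavy chain Slc3a2 (4F2hc, CD98) carries light chains of the Slc7 family to the plasma membrane, and each light chain sets which amino acids the pair exchanges. Slc7a5 (LAT1) and Slc7a8 (LAT2) exchange large neutral amino acids such as leucine, Slc7a6 (y+LAT2) exchanges cationic for neutral amino acids, and Slc7a11 (xCT) imports cystine in exchange for glutamate. Slc7a1 (CAT1) carries arginine and lysine with no heavy chain, Slc1a4 (ASCT1) and Slc1a5 (ASCT2) exchange small neutral amino acids including, for Slc1a5, glutamine, and Slc38a1 and Slc38a2 import glutamine and other neutral amino acids with sodium. Leucine and arginine brought in by such carriers are sensed in the cell and activate mTORC1, the kinase complex that promotes translation and ribosome production. When amino acids run short, the kinase GCN2 and the factor ATF4 raise many of these transporter genes.

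Slc7a8 was the 1 member called between the groups, and the bases just upstream of its gene are shown for that reason. Slc7a8 lies on the minus strand of chromosome 14 at 54722209 to 54781946 (GRCm38, GENCODE M21). The stretch below is chr14:54781947-54782136 on GRCm38.p6, minus strand, 5′ to 3′. It is the part of the RefSeq promoter window that lies upstream of the outermost annotated start of the gene.
Slc7a8: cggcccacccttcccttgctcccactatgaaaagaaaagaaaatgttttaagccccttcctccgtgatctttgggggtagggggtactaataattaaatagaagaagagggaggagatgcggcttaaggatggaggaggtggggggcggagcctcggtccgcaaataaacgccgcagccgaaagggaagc
These 190 bases were 53.2% G or C and held 9 CpG dinucleotides. No capitals are shown because no searched motif matched. The motifs were TGTGGT, the RUNX motif, GATGNAA, the core of the C/EBP-ATF response element, and CACGTG, the E-box of MYC and related factors, each searched on both strands over the 250 bases upstream of the RefSeq start. Of all 32851 RefSeq windows of 250 bases, 14% held TGTGGT, 10.5% held GATGNAA and 6.02% held CACGTG. RefSeq windows were at hand for 7 of the 10 members. Among them, Slc3a2 had TGTGGT at bases -138 to -133 on the strand opposite to the gene, in a window upstream of an internal start. Slc7a11 had GATGNAA at bases -65 to -59 and -47 to -41, and Slc7a1 had it at bases -214 to -208. These matches describe letters in a window and are no evidence of binding.

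The first question was whether the transporter genes differed with genotype in polyA RNA. The light chain gene Slc7a8 was about 5 times higher in the Mut-labelled libraries, and no other member passed the test. Over the 17128 genes that entered the mRNA comparison, 3.64% were called at an adjusted p under 0.05 by edgeR's quasi-likelihood test, 1.75% higher and 1.89% lower. Scaling to the ERCC spike-ins gave 170 calls, 16 higher and 154 lower, in place of 300 higher and 324 lower. Of the 10 members, 1 was called higher and 0 lower, while 3 had an unadjusted p under 0.05 (as did 15.7% of all genes), namely Slc7a8, Slc3a2 and Slc7a1. The median log2 fold change of the members was 0.07, against -0.01 over all genes tested, with 6 members positive and 4 negative. Apart from Slc7a8, the members' log2 fold changes ran from -0.47 to 0.42.

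**Figure D1:**
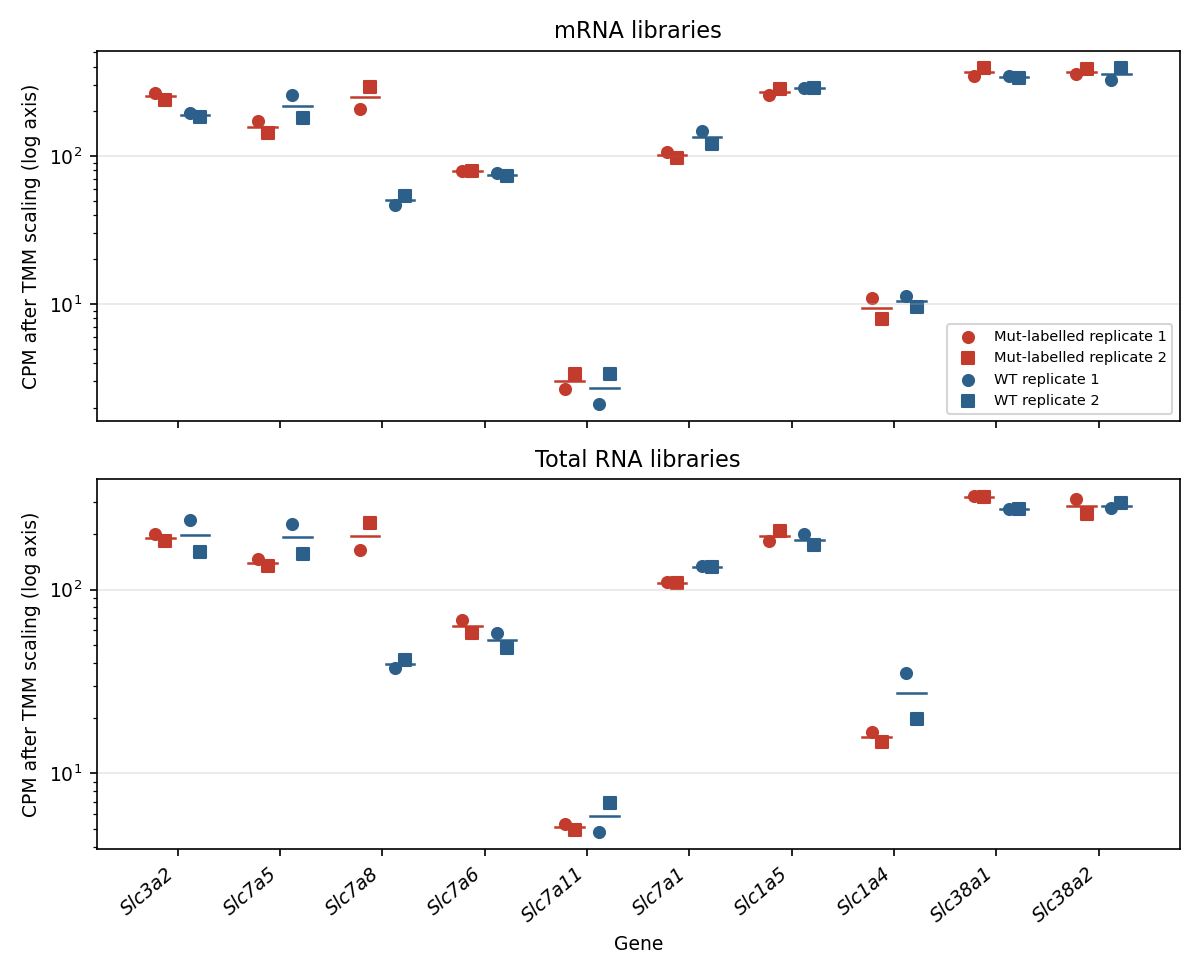
CPM after TMM scaling (log axis) of each transporter gene in the Mut-labelled (red) and WT (blue) libraries, with mRNA libraries above and total RNA libraries below; points are libraries and short lines are means of 2. Slc7a8 is the gene whose red and blue points lie far apart, at 208 and 294 CPM in Mut-labelled and 46.8 and 53.9 CPM in WT mRNA libraries.

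The heavy chain gene Slc3a2 had 265 and 241 CPM in Mut-labelled mRNA libraries, against 196 and 183 CPM in WT mRNA libraries. Both Mut-labelled values lay above both WT values. The log2 fold change was 0.42 (SE 0.13), and the difference missed the threshold (edgeR adjusted p = 0.188). In total RNA the order was not kept. Slc3a2 had 199.7 and 184 CPM in the Mut-labelled total RNA libraries, and 239 and 159 CPM in the WT total RNA libraries. The groups overlapped there, and the log2 fold change was -0.06 (SE 0.19, edgeR adjusted p = 0.942).

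Slc7a8 had 208 and 294 CPM in Mut-labelled mRNA libraries, against 46.8 and 53.9 CPM in WT mRNA libraries. The lowest Mut-labelled value thus lay far above the highest WT value. The log2 fold change was 2.32 (SE 0.21, edgeR adjusted p = 0.00784), a fold of 4.99. In the total RNA libraries Slc7a8 had 164 and 229 CPM in Mut-labelled and 37.2 and 41.3 CPM in WT samples, from 155 and 279 counts in Mut-labelled and 39 and 42 counts in WT samples. The difference was of the same size there, with an edgeR log2 fold change of 2.33 (SE 0.22, adjusted p = 2.06e-06), a fold of 5.02. In both kinds the second Mut-labelled sample was the higher. Among the 300 genes called higher in the mRNA libraries, 92 had a larger log2 fold change than Slc7a8, and 4 of those also had a higher Mut-labelled CPM. In total RNA 58 of the 269 genes called higher had a larger log2 fold change, 4 of them with a higher Mut-labelled CPM. Scaling to the ERCC spike-ins moved the median of all genes to -0.38 in mRNA and -1.10 in total RNA libraries. The log2 fold change of Slc7a8 was then 2.01 in mRNA (SE 1.09, edgeR adjusted p = 0.999) and 1.18 in total RNA (edgeR adjusted p = 0.135). The call was thus lost, although Slc7a8 lay 2.39 and 2.28 above those medians. Spike-in counts differed between replicates. They were 312754 and 142196 in Mut-labelled and 243670 and 118723 in WT mRNA libraries. In total RNA they were 7471 and 16620 in Mut-labelled and 4293 and 5649 in WT libraries.

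Slc7a5, the other light chain for large neutral amino acids, ran the opposite way in value and was not called. It had 173 and 143 CPM in Mut-labelled mRNA libraries, against 258 and 180 CPM in WT mRNA libraries. The second WT library was close to the first Mut-labelled one. The log2 fold change was -0.47 (SE 0.21, edgeR adjusted p = 0.370). In total RNA Slc7a5 had 146 and 134 CPM in Mut-labelled and 228 and 156 CPM in WT samples (log2 fold change -0.46, SE 0.19, edgeR adjusted p = 0.225). There 1 library decided the call, since without the second WT library the log2 fold change was -0.70 with an edgeR adjusted p of 0.0349.

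The values of Slc7a6 lay close together. It had 79.3 and 79.6 CPM in Mut-labelled mRNA libraries, against 76.2 and 72.9 CPM in WT mRNA libraries (log2 fold change 0.09, SE 0.12, edgeR adjusted p = 0.826). In total RNA it had 68.7 and 58.3 CPM in Mut-labelled and 58.2 and 48.2 CPM in WT samples. That difference, 0.25 on the log2 scale, was near its SE of 0.24 (edgeR adjusted p = 0.720). The cystine carrier Slc7a11 was the lowest member. It had 2.69 and 3.39 CPM in Mut-labelled and 2.11 and 3.35 CPM in WT mRNA libraries, with overlapping groups (log2 fold change 0.16, SE 0.39, edgeR adjusted p = 0.926). With 5 and 6 counts in Mut-labelled and 5 and 7 counts in WT total RNA libraries, it was too low to be tested there, and a difference was not detectable at this depth.

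The arginine and lysine carrier Slc7a1 was lower in value in the Mut-labelled libraries of both kinds, and was not called in either. It had 106 and 97.1 CPM in Mut-labelled, against 148 and 121 CPM in WT mRNA libraries (log2 fold change -0.40, SE 0.15, edgeR adjusted p = 0.265). In total RNA it had 109.9 and 108 CPM in Mut-labelled and 135 and 132 CPM in WT samples (log2 fold change -0.29, SE 0.18, edgeR adjusted p = 0.509). The groups did not overlap in either kind.

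Slc1a5, which carries glutamine, was among the most abundant members and near equal between the groups. It had 258 and 284 CPM in Mut-labelled and 286 and 287 CPM in WT mRNA libraries (log2 fold change -0.08, SE 0.13, edgeR adjusted p = 0.873). In total RNA it had 184 and 209.6 CPM in Mut-labelled and 199.5 and 174 CPM in WT samples, which overlapped (log2 fold change 0.08, SE 0.16, edgeR adjusted p = 0.898). Its relative Slc1a4 was far less abundant. Slc1a4 had 11 and 7.87 CPM in Mut-labelled and 11.4 and 9.52 CPM in WT mRNA libraries (log2 fold change -0.14, SE 0.28, edgeR adjusted p = 0.905). In total RNA it had 16.9 and 14.8 CPM in Mut-labelled and 35.3 and 19.7 CPM in WT samples, where the first WT library stood highest. That difference, -0.80 on the log2 scale (SE 0.39, edgeR adjusted p = 0.351), rested on 16 and 18 counts in Mut-labelled and 37 and 20 counts in WT samples.

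The sodium-coupled importers Slc38a1 and Slc38a2 had the highest CPM of the members and were not called. Slc38a1 had 349 and 392 CPM in Mut-labelled and 345 and 337 CPM in WT mRNA libraries (log2 fold change 0.12, SE 0.14, edgeR adjusted p = 0.809). In total RNA it had 323 and 317 CPM in Mut-labelled and 275 and 273 CPM in WT samples (log2 fold change 0.23, SE 0.15, edgeR adjusted p = 0.562). Slc38a1 was thus above WT in each Mut-labelled library by a margin within 2 SE. Slc38a2 had 357 and 387 CPM in Mut-labelled and 325 and 395 CPM in WT mRNA libraries, so that the groups overlapped (log2 fold change 0.05, SE 0.16, edgeR adjusted p = 0.945). It overlapped in total RNA as well, with 312 and 258 CPM in Mut-labelled and 277 and 296 CPM in WT samples (log2 fold change -0.01, SE 0.16, edgeR adjusted p = 0.984).

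Total RNA allowed 9 members to be tested, of which 1 was called higher, 0 were called lower and 2, Slc7a8 and Slc7a5, had an unadjusted p under 0.05 (as did 14.8% of all genes). There 4.23% of the 10546 genes that entered were called, 2.55% higher and 1.68% lower. Under ERCC scaling 373 were called, 13 higher and 360 lower, in place of 269 higher and 177 lower. The members' median log2 fold change was -0.01, against 0.00 over all genes tested. In the mRNA libraries the 2 groups did not overlap for 7 members, 4 of them higher (Slc7a6, Slc7a8, Slc3a2 and Slc38a1) and 3 lower (Slc7a1, Slc7a5 and Slc1a5) in the Mut-labelled libraries. Of all genes tested there, 44.6% did not overlap, 21.4% with Mut-labelled above and 23.1% with it below. In total RNA the tested members that did not overlap were Slc7a6, Slc7a8 and Slc38a1, higher, and Slc7a1, Slc7a5 and Slc1a4, lower. Of all genes tested there, 44% did not overlap, 22.5% with Mut-labelled above and 21.4% with it below. Slc7a6, Slc7a8 and Slc38a1 were thus above WT and Slc7a1 and Slc7a5 below WT in every Mut-labelled library of both kinds after TMM scaling. The share of all genes that did so in both kinds was not taken, and both kinds were read as the same samples. This repeat is therefore no result about the members. Under ERCC scaling the log2 fold changes of Slc7a6 and Slc38a1 were -0.27 and -0.22 in mRNA and -0.83 and -0.86 in total RNA.

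**Figure D2:**
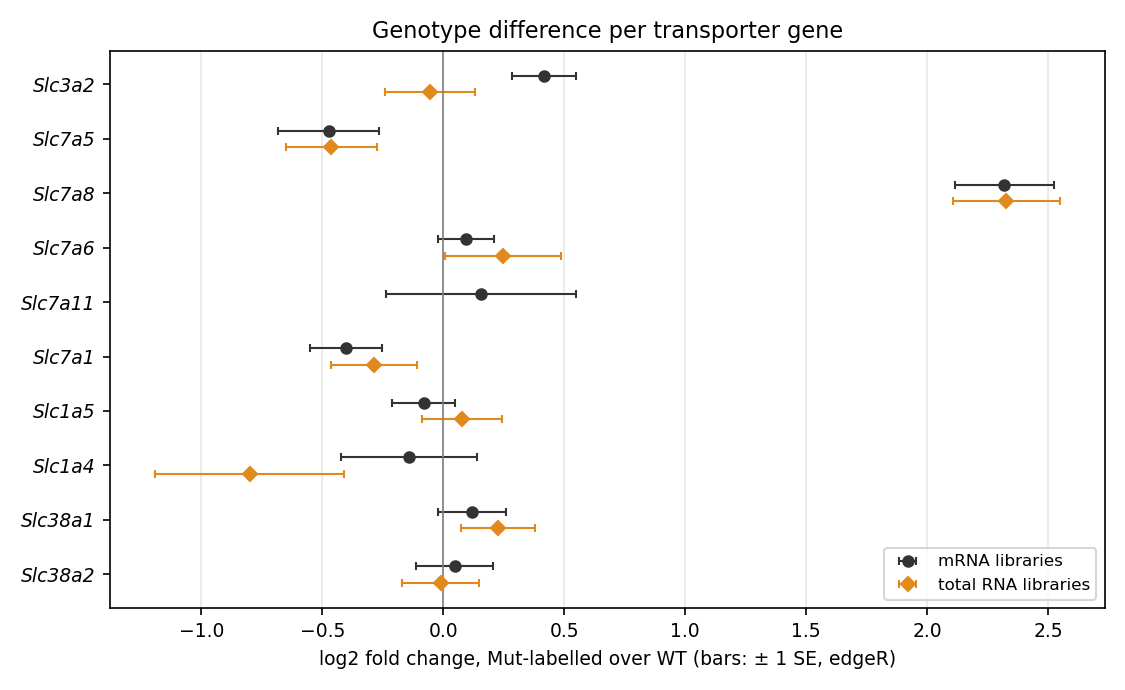
Log2 fold change of each transporter gene, Mut-labelled over WT, in mRNA (black circles) and total RNA libraries (orange diamonds), with bars of 1 SE from edgeR. Slc7a8 stands at 2.32 and 2.33, the other members lie between -0.80 and 0.42, and Slc7a11 has no total RNA value because its counts were too low to be tested.

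The next question was whether mRNA and total RNA libraries showed unlike genotype differences, and an interaction term in a fit of 8 libraries tested it. None of the 10 members was called, with an edgeR adjusted p that rounds to 1 for each, and 0 had an unadjusted p under 0.05. The largest differences, total RNA minus mRNA, were -0.62 for Slc1a4 (SE 0.51) and -0.43 for Slc3a2 (SE 0.26), and that of Slc7a8 was 0.05 (SE 0.32). Among all 17416 genes edgeR called 0%, while 686 (3.94%) had an unadjusted p under 0.05 and DESeq2 called 12. With the sorted sample as a block, edgeR called 111 genes, and 0 of these were members.

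Between the kinds of library, averaged over genotype, 15.1% of all genes were called, 7.49% higher and 7.64% lower in total RNA. This split moved with the scaling, since 1304 higher and 1330 lower calls became 2142 higher and 1126 lower by DESeq2, 1461 higher and 751 lower under RLE (median ratio) scaling, and 212 higher and 33 lower under ERCC scaling. Among the members Slc1a4 was higher and Slc1a5 lower in total RNA, and 3 had an unadjusted p under 0.05, against 31.2% of all genes. The log2 fold change, total RNA over mRNA, was 1.24 for Slc1a4 (SE 0.26, edgeR adjusted p = 0.0120) and -0.37 for Slc1a5 (SE 0.10, edgeR adjusted p = 0.0350). Slc7a11 had a log2 fold change of 1.08 and missed the threshold (SE 0.38, edgeR adjusted p = 0.0804). With the sorted sample as a block, edgeR called 4895 genes instead of 2634, and both calls among the members held, with adjusted p = 9.4e-06 for Slc1a4 and 0.000338 for Slc1a5. Both calls were lost under ERCC scaling and depended on single libraries, and that of Slc1a5 was also lost under RLE scaling (log2 fold change -0.30, edgeR adjusted p = 0.0822). Leaving out either Mut-labelled sample or the first WT sample took the edgeR adjusted p of Slc1a4 to between 0.0738 and 0.111, and leaving out any sample took that of Slc1a5 to between 0.111 and 0.218.

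Levels of different genes were compared per length, as CPM per kilobase of exon. Exon lengths came from GENCODE M21 on GRCm38 while the counts were made on mm9 with a release that is not known here, so these levels are approximate. In the Mut-labelled mRNA libraries Slc3a2 led with 71.6 ± 4.9 CPM per kilobase (SD, n = 2, as for all that follow), then Slc1a5 with 64.9 ± 4.4 and Slc7a8 with 50.2 ± 12.1. In the WT mRNA libraries Slc1a5 led with 68.7 ± 0.23 CPM per kilobase, then Slc7a5 with 59.1 ± 14.8 and Slc3a2 with 53.7 ± 2.5, and Slc7a8 came eighth with 10.1 ± 1.0. Slc7a8 thus stood by mean at rank 3 in Mut-labelled and rank 8 in WT libraries, and it did so in both kinds. Its Mut-labelled mRNA values overlapped those of the next gene, Slc7a5 at 42.6 ± 5.7 CPM per kilobase. Its WT mRNA values overlapped those of the gene above it, Slc7a1 at 11.6 ± 1.6. In total RNA the values of Slc7a8 overlapped those of Slc1a5 and Slc7a5 in Mut-labelled and of Slc1a4 in WT libraries. Slc38a2 followed with 42.1 ± 2.4 CPM per kilobase in Mut-labelled and 40.7 ± 5.7 in WT mRNA libraries. Below came Slc38a1 with 21.5 ± 1.8 in Mut-labelled and 19.8 ± 0.33 in WT, Slc7a6 with 17.4 ± 0.050 in Mut-labelled and 16.3 ± 0.51 in WT, and Slc7a1 with 8.8 ± 0.53 in Mut-labelled libraries. The lower end was the same by mean in each group of either kind, with Slc1a4 ninth and Slc7a11 last. Slc1a4 had 2.41 ± 0.57 CPM per kilobase in Mut-labelled and 2.66 ± 0.33 in WT mRNA libraries, and Slc7a11 had 0.218 ± 0.036 in Mut-labelled and 0.196 ± 0.063 in WT mRNA libraries. Neighbours in the order were apart in range from Slc38a2 down in the Mut-labelled mRNA libraries. In the WT mRNA libraries the first 3 genes overlapped each other in turn, as did Slc7a1 and Slc7a8.

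The same levels give the make-up of the 4 light chains that share Slc3a2. Slc7a8 made up 39.4% and 51.1% of their summed CPM per kilobase in the Mut-labelled mRNA libraries, against 9.77% and 14.2% in the WT mRNA libraries. Slc7a5 made up 44.0% and 33.5% in the Mut-labelled and 72.6% and 64.4% in the WT mRNA libraries. Slc7a5 was therefore the leading light chain transcript in both WT libraries, while in the Mut-labelled libraries Slc7a5 led in the first and Slc7a8 in the second. The total RNA libraries showed the same order in each sample, with Slc7a8 at 37.4% and 48.2% in Mut-labelled and 9.07% and 13.4% in WT samples. Slc7a6 held between 13.4% and 21.1% over all 8 libraries, and Slc7a11 less than 1%. The 4 shares of a library make up a whole, so a higher Slc7a8 level lowers the other shares by arithmetic. The level of Slc7a5 itself was not called in the mRNA libraries (log2 fold change -0.47, edgeR adjusted p = 0.370). The ratio of summed light chain to heavy chain level was 1.41 and 1.69 in Mut-labelled and 1.73 and 1.46 in WT mRNA libraries, so that these groups overlapped. In total RNA it was 1.55 and 1.82 in Mut-labelled and 1.21 and 1.36 in WT samples, which did not overlap. Summed over all 10 members, the level was 315 and 328 CPM per kilobase in Mut-labelled and 292 and 274 in WT mRNA libraries. In total RNA that sum was 256 and 258 in Mut-labelled and 265 and 214 in WT samples, which overlapped. Without Slc7a8 the sum was 274 and 269 CPM per kilobase in Mut-labelled and 283 and 263 in WT mRNA libraries, which overlapped. No test was run on these shares and sums, which are given as a description and are of transcripts, not of protein at the membrane.

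**Figure D3:**
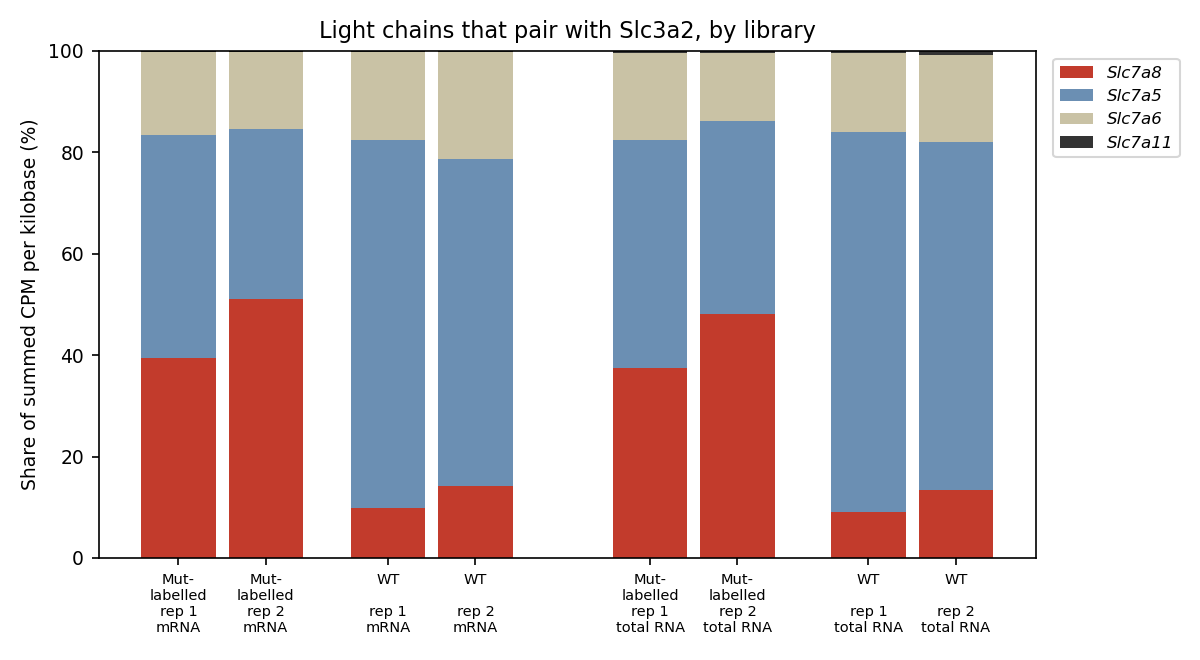
Share of the summed CPM per kilobase (%) taken by Slc7a8, Slc7a5, Slc7a6 and Slc7a11 in each of the 8 libraries. Slc7a8 takes 37.4% to 51.1% in the Mut-labelled libraries and 9.07% to 14.2% in the WT libraries. The Slc7a5 share runs the other way, in part by arithmetic, since the shares of a library make up a whole.

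Genes of other cell types also differed between the groups, and in bulk RNA a change in the number of cells of a type cannot be told apart from a change in RNA per cell. Of 8 megakaryocyte markers, 5 lay above WT in both Mut-labelled mRNA libraries and 4 were called higher. Their summed CPM was 2182 and 2003 in Mut-labelled and 803 and 727 in WT mRNA libraries. Of 7 mast cell and basophil markers, 4 lay above and 3 below WT in both Mut-labelled mRNA libraries. Among these 7, 3 were called higher and 2 lower, with sums of 686 and 881 CPM in Mut-labelled and 172 and 124 CPM in WT mRNA libraries. All 10 mature neutrophil markers lay above WT and 2 were called higher, with sums of 529 and 167 CPM in Mut-labelled and 41.6 and 49.8 CPM in WT mRNA libraries. These 3 sums were higher in both Mut-labelled libraries than in either WT library. As a background for all these marker counts, edgeR called 1.75% of all genes higher and 1.89% lower, and 21.4% of all genes lay above and 23.1% below WT in both Mut-labelled libraries. Of 8 erythroid markers, 5 lay below and 0 above WT in both Mut-labelled mRNA libraries. Among these 8, 3 were called lower, with sums of 348 and 246 CPM in Mut-labelled and 1147 and 900.0 CPM in WT mRNA libraries. Macrophage markers, 0 of 10 called, summed to 85.1 and 58.0 CPM in Mut-labelled and 80.8 and 53.9 CPM in WT mRNA libraries. Of these 10, 2 lay above and 6 below WT in both Mut-labelled mRNA libraries. Marco was near the floor, with 0 counts in both Mut-labelled and 1 and 7 counts in WT mRNA libraries. B and plasma cell markers, 1 of 7 called lower, summed to 422 and 2087 CPM in Mut-labelled and 1121 and 9563 CPM in WT mRNA libraries. Of these 7, 1 lay below and 0 above WT in both Mut-labelled libraries. Ms4a1 was near the floor, with 0 counts in both Mut-labelled and 5 and 0 counts in WT mRNA libraries. The macrophage sum and the B and plasma cell sum both overlapped between the groups. T and NK markers, 2 of 5 called lower, summed to 29.6 and 31.4 CPM in Mut-labelled and 88.5 and 77.4 CPM in WT mRNA libraries. Of these 5, 2 lay above and 2 below WT in both Mut-labelled libraries. Cd3d was near the floor, with 10 and 4 counts in Mut-labelled and 0 counts in both WT mRNA libraries. In total RNA it had 0 counts in both Mut-labelled and 1 and 4 counts in WT libraries. Stroma and endothelium markers, 1 of 7 called in each direction, summed to 203 and 167 CPM in Mut-labelled and 218 and 178 CPM in WT mRNA libraries. Of these 7, 1 lay above and 1 below WT in both Mut-labelled libraries. The part of these cell types in the Slc7a8 result was not tested.

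The genes whose pattern over the 8 libraries was most like that of Slc7a8 were Btbd11, Itga9 and Clec4e. Likeness was the Euclidean distance of log2(CPM + 1), centred within each kind of library, over 10509 genes. The distances were 0.317 for Btbd11, 0.351 for Itga9, which encodes an integrin subunit, and 0.353 for Clec4e, a C-type lectin of myeloid cells, against a median of 3.32 over all genes. Each was itself called higher in the mRNA libraries, Btbd11 by 2.67, Itga9 by 2.37 and Clec4e by 2.33 on the log2 scale (edgeR adjusted p = 0.00579, 0.00579 and 0.00752). These genes were picked for their likeness over the same 8 libraries, so fold changes near that of Slc7a8 follow from the choice. They are a description and no separate evidence. Nearest to Slc7a5 were Ehd1 at 0.178, Cd63-ps at 0.205 and Cnp at 0.213, with a median of 1.03, and nearest to Slc3a2 were St3gal4 at 0.142, Sqstm1 at 0.167 and Tes at 0.203, with a median of 0.847. None of these 6 genes was called by edgeR in the mRNA libraries, and Cd63-ps was called by DESeq2 (log2 fold change -0.57, adjusted p = 0.0395). Cd63-ps is a pseudogene, and its counts may hold reads of its parent gene.

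Around the 10 members, 8 lists of genes for uptake, sensing and use of amino acids were read from the same mRNA comparison. The background is that of the mRNA libraries, 3.64% called and 15.7% with an unadjusted p under 0.05. Of 38 other plasma membrane amino acid transporter genes, 21 were tested, 1 was called lower, 0 higher, and 9 had an unadjusted p under 0.05. Slc6a15, a carrier of neutral amino acids, fell to 1.06 and 2.24 CPM in the Mut-labelled libraries, against 16.9 and 18.1 CPM in the WT libraries (log2 fold change -3.40, SE 0.42, edgeR adjusted p = 0.0176). Of the 9, 4 genes (Slc1a2, Slc1a6, Slc6a19 and Slc6a20a, named here after their values were seen) had 0 counts in both Mut-labelled libraries and at most 0.922 CPM in WT libraries. They passed the filter on low counts through the WT libraries alone, so the median of the 21, -0.41 with these genes as fitted or at a bound of 3 counts per library, gives no direction for the list. The 2 most abundant of them were near equal, with log2 fold changes of 0.03 for Slc38a10 and 0.11 for the taurine carrier Slc6a6. Of 10 lysosomal carriers tested, 0 were called and 0 had an unadjusted p under 0.05. The most abundant were Slc36a1 at 0.17 and Slc29a3, known as a nucleoside carrier, at 0.18 on the log2 scale. The median of the 10 was 0.06.

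Of 45 genes of the mTORC1 complex and amino acid sensing, 1 was called higher, 0 lower and 3 had an unadjusted p under 0.05, with a median of -0.06. The gene called was Castor2, a relative of the arginine sensor Castor1, with 55.4 and 61.7 CPM in Mut-labelled, against 30.4 and 34.6 CPM in WT mRNA libraries (log2 fold change 0.85, SE 0.15, edgeR adjusted p = 0.0465). Leaving out any 1 of the 4 libraries ended that call (edgeR adjusted p from 0.0526 to 0.197), and in total RNA the log2 fold change of 0.86 missed the threshold (SE 0.27, edgeR adjusted p = 0.0886). The abundant Eif4ebp2, a translation repressor that mTORC1 inactivates, had a log2 fold change of 0.15, and the autophagy kinase Ulk1 one of 0.39, neither called.

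Of 26 genes of the GCN2 and ATF4 response, 1 was called lower, 0 higher and 3 had an unadjusted p under 0.05, with a median of 0.01. Asns, which makes asparagine with nitrogen from glutamine, fell to 16.1 and 13.8 CPM in Mut-labelled mRNA libraries, against 61.6 and 44.9 CPM in WT mRNA libraries (log2 fold change -1.84, SE 0.22, edgeR adjusted p = 0.0160). It fell in total RNA too, where it had 15.8 and 18.9 CPM in Mut-labelled and 59.2 and 33.5 CPM in WT samples (log2 fold change -1.40, SE 0.34, edgeR adjusted p = 0.0198). Asns is also in the list of glutamine and glutamate enzymes, of which 16 were tested, 1 was called lower, 0 higher and 5 had an unadjusted p under 0.05. Of those 16, 15 had a negative log2 fold change and the median was -0.25, against -0.01 over all genes tested. The share of negative values over all genes was not taken, so this count of signs gives no direction for the list. Cad, which starts pyrimidine synthesis from glutamine, was at -0.48 (SE 0.14, edgeR adjusted p = 0.144) and was called by DESeq2 (adjusted p = 0.0145). Glul, glutamine synthetase, was at -0.17. Under ERCC scaling the mRNA calls of Slc6a15, Castor2 and Asns were all lost (edgeR adjusted p from 0.129 to 0.999), at log2 fold changes of -3.62 (SE 1.17) for Slc6a15, 0.47 (SE 1.04) for Castor2 and -2.17 (SE 1.08) for Asns. The abundant GCN2 response genes Gcn1l1 and Shmt2 were at 0.01 and -0.05 on the log2 scale.

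Of 20 aminoacyl tRNA synthetase genes, 0 were called and 0 had an unadjusted p under 0.05. In value 19 of 20 had a negative log2 fold change, with a median of -0.14, against -0.01 over all genes tested. The share of negative values over all genes was not taken, and genes of a list can vary together. The count of signs thus gives no direction for the list. Vars was at -0.20 and Eprs at -0.21. Of 20 cystine and glutathione genes, 0 were called and 2 had an unadjusted p under 0.05, with a median of -0.11, where Gpx1 stood at -0.06 and Txnrd1 at -0.01. In total RNA 15 genes of that list were tested and 1 was called lower, where 1.68% of all genes were called lower. It was Gclc, the catalytic subunit of the first step of glutathione synthesis, named here after its values were seen. It had 132 and 122 CPM in Mut-labelled and 231 and 176 CPM in WT total RNA libraries (log2 fold change -0.69, SE 0.18, edgeR adjusted p = 0.0308). Its mRNA log2 fold change was 0.04, and edgeR's main interaction fit called 0 of all genes between the kinds. Of 14 branched chain and arginine enzymes tested, 0 were called and 0 had an unadjusted p under 0.05, with a median of -0.15. The most abundant, Azin1 and Bckdk, were at -0.15 and 0.00.

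**Figure D4:**
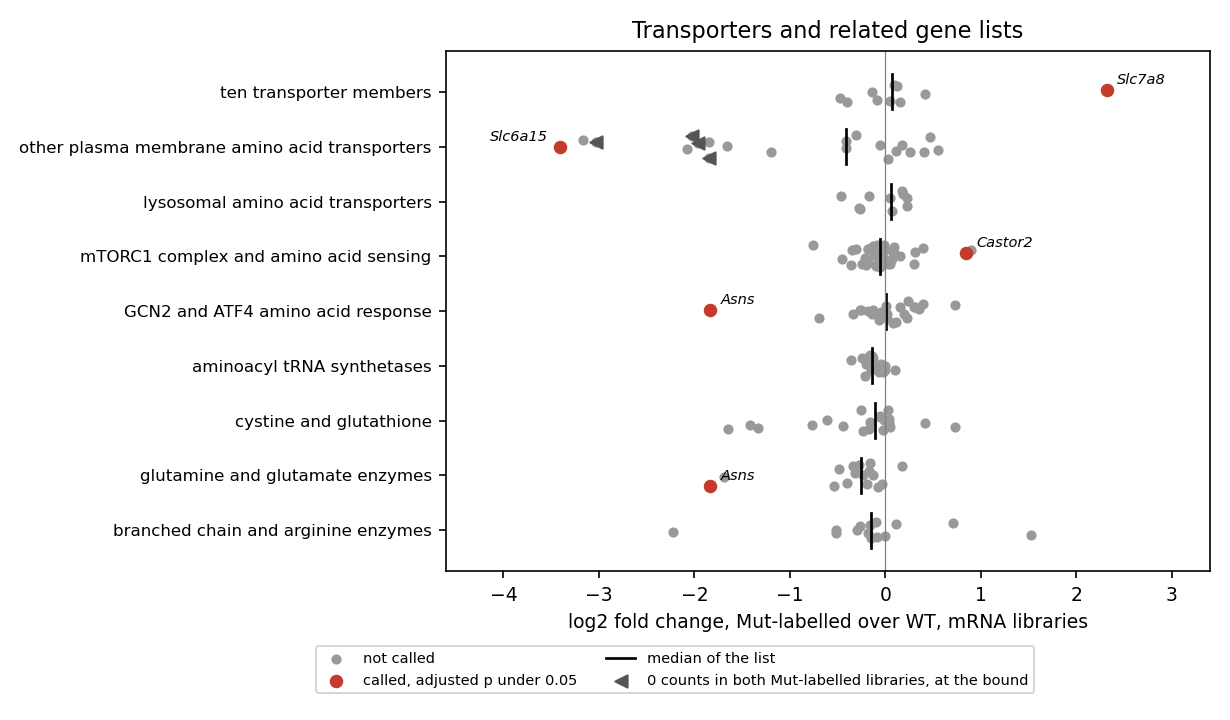
Log2 fold change, Mut-labelled over WT, in the mRNA libraries for the 10 transporter genes and 8 related lists; each point is a gene, red points were called by edgeR, black lines are list medians and triangles are genes with 0 counts in both Mut-labelled libraries, drawn at their bound. Slc7a8 at 2.32 and Castor2 at 0.85 are the red points to the right, and Slc6a15 at -3.40 and Asns at -1.84 those to the left.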

How the data were processed

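The authors deposited 1 table of raw counts with a column per library, whole numbers that had not been normalised. The submitters' processing notes name TopHat, featureCounts, edgeR and the mm9 build, without versions or order; the sources used here do not give annotation release, strand or multiple mapping. The 92 ERCC and 3 rRNA rows were kept out of library sizes and tests.

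Genotypes were compared within each kind of library (2 against 2) by two-sided quasi-likelihood tests in edgeR 4.0.16 (R 4.3.3) after TMM scaling and filterByExpr. P-values were Benjamini-Hochberg adjusted over all genes tested and called under 0.05. Kind and interaction were fitted over 8 libraries. Standard errors are the log2 fold change divided by the root of F. The fits were also run on simulated counts, drawn with a single spread shared by all genes and no replicate effect. Those runs do not show how the tests hold on these data. Alternatives were DESeq2 1.42.0, RLE and ERCC scaling, no filter, a joint fit, a replicate block and leaving out replicates.

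Libraries of the same name in both kinds deviated together (correlation 0.449 for Mut-labelled and 0.391 for WT samples) and come from 1 sample by name. Replicates differed by more than sampling noise (chi-square per degree of freedom 2.60 to 65.1). Members, lists and tests were chosen with earlier results of these data known. The text names every member, Runx1, the called and the 2 most abundant genes of each list, and the 3 genes nearest to the 3 members with the largest mRNA change.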

Additional observations from a re-analysis of the deposited data

How the results depend on the processing

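The genotype difference of Slc7a8 kept its direction in all alternatives and lost its call under ERCC scaling alone; its mRNA log2 fold change lay between 2.06 and 2.55 without 1 library. The cause of each change below was not tested. Calls in mRNA libraries, 624, were 1615 by DESeq2, 170 under ERCC scaling (16 higher, 154 lower) and 2870 with the replicate block (16.8%); members called, 1, were 0 under ERCC scaling and 4 with the block (Slc7a8, Slc7a5, Slc3a2, Slc7a1); genes called in the related lists, 3, were 5 in the 8-library fit, 10 by DESeq2, 0 under ERCC scaling, 28 with the block and 2 to 5 without 1 library. Numbered replicates deviated together (correlation 0.451 in mRNA, 0.227 in total RNA), but with 2 pairs they share only a number. Calls in total RNA, 446, were 273 in the 8-library fit, 199 by DESeq2, 724 with no filter, 870 with the block and 373 under ERCC scaling (13 higher, 360 lower); members called there were 0 under ERCC scaling and 1 to 2 without 1 library. Of the other named genes, DESeq2 called Cad and Cd63-ps, and the block Cad, Cd63-ps, Ulk1, Ehd1, Cnp, St3gal4, Sqstm1 and Tes. Interaction calls, 0, were 12 by DESeq2, 111 with the block and 0 to 1 without 1 library. Calls between kinds, 2634, were 245 under ERCC scaling, 4895 with the block and 492 to 1292 without 1 sample; members called, 2, were 0 under ERCC scaling, 1 under RLE and 0 to 1 without 1 sample.

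Log2 fold changes turned sign in these cases. In mRNA libraries under ERCC scaling they were -0.27 for Slc7a6, -0.26 for Slc7a11, -0.22 for Slc38a1, -0.35 for Slc38a2, -0.34 for Slc38a10, -0.25 for Slc6a6, -0.16 for Slc36a1, -0.17 for Slc29a3, -0.23 for Eif4ebp2, -0.28 for Gcn1l1, -0.41 for Bckdk, -0.046 for Sqstm1 and -0.048 for Tes. With the block Gcn1l1 was at -0.042 and Bckdk at -0.0056. In total RNA Slc38a2 was at 0.035 in the 8-library fit, and under ERCC scaling Slc7a6 was at -0.83, Slc1a5 at -1.05 and Slc38a1 at -0.86. The interaction under ERCC scaling was -0.63 for Slc7a1, -0.76 for Slc7a5, -0.56 for Slc7a6, -0.82 for Slc7a8, -0.62 for Slc1a5 and -0.64 for Slc38a1. Between kinds Slc7a5 was at 0.059 by DESeq2 and 0.059 under RLE, Slc7a1 at -0.44 and Slc3a2 at -0.64 under ERCC scaling, and Slc3a2 at -0.010 with no filter and -0.0037 with the block.

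Without 1 library or sample, these ranges crossed 0. In mRNA libraries they were -0.16 to 0.15 for Bckdk, -0.14 to 0.54 for Slc7a11, -0.41 to 0.087 for Slc1a4, -0.091 to 0.21 for Slc38a2, -0.012 to 0.34 for Slc36a1, -0.47 to 0.36 for Gcn1l1, -0.15 to 0.056 for Shmt2, -0.30 to 0.17 for Gpx1 and -0.080 to 0.059 for Txnrd1. In total RNA they were -0.31 to 0.27 for Slc3a2, -0.026 to 0.18 for Slc1a5 and -0.14 to 0.12 for Slc38a2. For the interaction they were -0.10 to 0.14 for Slc7a5, -0.063 to 0.082 for Slc7a8 and -0.21 to 0.093 for Slc38a2. Between kinds they were -0.055 to 0.024 for Slc7a5 and -0.14 to 0.11 for Slc3a2.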
